A study of Homo sapiens with 18 samples.

Results

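The 31 genes described here are a list of p53 pathway genes, matched by symbol to the 58037 Ensembl gene IDs of a bulk RNA-Seq count table. The rule names genes and uses no measured value, and each of the 31 symbols matched 1 ID. The table covers 3 human acute myeloid leukemia (AML) cell lines in 18 libraries. MOLM13 cells, which carry the MLL-AF9 fusion, were treated with 500 nM of the Menin inhibitor VTP50469 (called SNDX-50469 by the study), with 500 nM of the pan-BET inhibitor OTX015, or with 500 nM of each together, with 2 libraries per treatment and 2 control libraries. MV4-11 cells, which carry a rearranged MLL gene, were treated with 1000 nM VTP50469 (2 libraries, 2 controls), and OCI-AML3 cells, which carry mutant NPM1, with 500 nM VTP50469 (3 libraries, 3 controls). All treatments lasted 16 h, and the labels do not say what the control cells received. Each line is a single established line, and MV4-11 cells grew in another medium than the other 2 lines. The libraries of MOLM13 and OCI-AML3 are called biologic replicates by the study. Whether those of MV4-11 came from separate cultures is not stated, and a p-value for that line reflects the spread of its libraries, which may be technical.

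The tumor suppressor p53 is a transcription factor that is kept low by the ubiquitin ligase MDM2 and its partner MDM4, and that builds up after DNA damage, oncogene activity or disturbed ribosome assembly. Its targets feed back on p53 itself, halt the cell cycle, repair DNA, reset metabolism, or carry the cell into apoptosis. The study asks whether inhibitors of Menin, the scaffold that tethers MLL1 and its fusions to chromatin, and of BET proteins, which read acetylated histones, act together in AML cells. The list holds 7 genes that act on p53 or its response (MDM2, MDM4, PPM1D, CCNG1, TP53INP1, ZMAT3, TRIAP1), 4 of growth arrest (BTG2, GADD45A, PLK2, PLK3), 4 of DNA repair and nucleotide supply (XPC, DDB2, POLH, RRM2B), 4 of metabolism and redox control (FDXR, SESN1, TIGAR, TP53I3), 3 death receptors (FAS, TNFRSF10B, EDA2R), 6 of apoptosis and mitochondrial quality (AEN, PHLDA3, PERP, EI24, SPATA18, PPP1R13B) and 3 others (RPS27L, GDF15, TRIM22).

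The p53 protein binds DNA as a tetramer, each pair of subunits reading a half-site of 10 bases with a fixed C and G in its core. The start-site windows searched came from RefSeq (GRCh38.p14) and ran from 250 bases before to 50 bases after a transcript's start. They included 37 windows of 25 members. No window of TP53INP1, RRM2B, TNFRSF10B, GADD45A, PHLDA3 or TRIM22 was searched, so whether these 6 genes carry a site was not tested. A pair of p53 half-sites had exact cores, at most 3 mismatches outside them and a spacer of 0 or 1 bases. Of the 37 member windows 6 contained such a pair, and of the 35116 windows searched 0.82% did. The 6 members with a pair were SESN1, FAS, DDB2, RPS27L, AEN and GDF15. Their sites are printed 5′ to 3′ on the strand of the gene, with the half-sites in capitals, to set beside the values below, where the genes that carry them differ in direction.
DDB2: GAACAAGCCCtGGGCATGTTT
FAS: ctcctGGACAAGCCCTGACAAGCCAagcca
AEN: gagccGGGCTTGCCCGGGCATGTGGgagct
SESN1: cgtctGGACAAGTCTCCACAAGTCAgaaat
RPS27L: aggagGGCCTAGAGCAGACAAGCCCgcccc
GDF15: AGCCATGCCCGGGCAAGAAC
The DDB2 site lies at chr11:47214979-47214999 on the plus strand, bases 5 to 25 after a transcript start, and had 0 mismatches. The FAS stretch lies at chr10:88991304-88991333, plus strand, with 2 mismatches, and its capitals span bases 122 to 103 before the last of the RefSeq starts of the gene. The AEN stretch is chr15:88621301-88621330, plus strand, with 2 mismatches, and its capitals end 15 bases before a start. The SESN1 stretch (chr6:109009013-109009042) and the RPS27L stretch (chr15:63157522-63157551) are on the minus strand and lie before a start, and the GDF15 site (chr19:18386186-18386205, plus strand) lies after it, each with 3 mismatches. A match of letters is not a measured binding site, and the search was chosen after the values below were seen.

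Libraries held between 19320216 and 59711884 counts, so a gene without a count in a library may lie anywhere below 3 counts, or 0.0502 to 0.1553 CPM (counts scaled to the size of the library). These limits reflect counting error alone. All 8 myeloid markers examined (CD33, SPI1, PTPRC, CEBPA, LYZ, MPO, CSF3R and FLT3) reached 1 CPM in each of the 8 groups, and their summed level was 999 to 3630 CPM. Summed levels were 0.405 to 10.2 CPM for 5 lymphoid markers, 0.1 to 2.13 CPM for 5 erythroid and megakaryocyte markers and 0.539 to 22.8 CPM for 5 epithelial and stromal markers (a sixth, PECAM1, matched no ID), with HBB at 0 counts in every group. MV4-11 control replicate 1 stood apart from the other MV4-11 libraries, with 10.3% of its counts from mitochondrial genes against 5.6% to 6.68% in the other 3. In MOLM13 the mitochondrial share also moved with the treatment, being 5.74% and 6.01% with both agents, 5.6% and 5.56% with OTX015, 4.98% and 5.5% with VTP50469 and 4.36% and 4.84% in controls. In OCI-AML3 it was 8.04%, 7.81% and 7.99% with VTP50469 against 7.68%, 7.17% and 7.68% in controls, so that every treated library lay above every control. The part of this share in the results was not tested. In bulk samples fewer cells that express a gene and less RNA per cell cannot be told apart.

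Some p53 targets of MOLM13 cells rose and others fell, as did many genes of the whole table. With both agents together 9 rose and 8 fell of the 26 that had enough counts to be tested, and with OTX015 alone 11 rose and 6 fell, while VTP50469 alone raised 4 and lowered 1. Here a gene is said to rise or fall where edgeR's quasi-likelihood test gave a Benjamini-Hochberg adjusted p below 0.05 over all genes tested and the change was at least 1.25-fold, the study's own limit. The other 5 members (TP53I3, EDA2R, PERP, SPATA18 and GDF15) had too few counts in MOLM13. Of all 14360 genes tested, 8.06% rose and 5.24% fell with VTP50469, 23.5% rose and 24.7% fell with OTX015, and 31.2% rose and 30.9% fell with the combination. The difference between the members' shares and this background was not tested. The count of 4 with VTP50469 was 3 with DESeq2, with limma-voom and without either control, or without VTP50469 replicate 1. Their median log2 change was 0.09 with VTP50469, 0.17 with OTX015 and 0.10 with the combination, beside 0.01, 0.01 and 0.02 over all genes tested. These 3 comparisons share the same 2 control libraries.

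**Figure D1:**
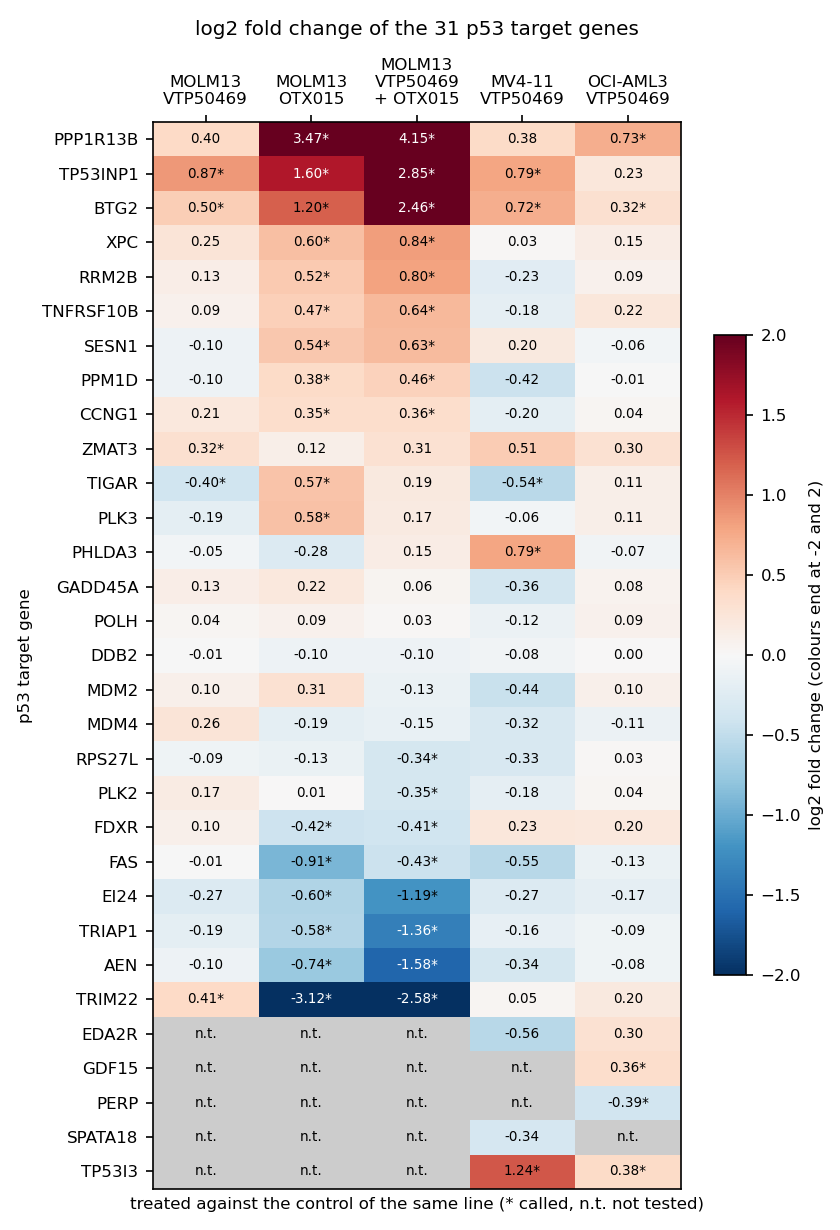
Log2 fold change of the 31 p53 target genes (down the page, ordered by the combination) in 5 comparisons of treated with control cells (across). Stars mark genes that passed the test and the fold limit and grey cells genes not tested. BTG2 is the only row with a star in each of the 3 VTP50469 columns, and TRIM22 holds the lowest value, -3.12 with OTX015.

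Among the genes that act on p53 and its response, TP53INP1 changed most. TP53INP1, a nuclear protein that helps direct p53 toward its apoptotic targets and also takes part in autophagy, had 4.84 and 5.08 CPM with VTP50469, 8.65 and 7.90 CPM with OTX015, and 18.7 and 20.6 CPM with both, against 2.79 and 2.65 CPM in controls. No library of any treatment overlapped the controls, and the order ran from VTP50469 through OTX015 to the combination. The log2 change was 0.87 ± 0.17 (SE, adjusted p = 4.93e-05) with VTP50469, 1.60 ± 0.16 (8.64e-14) with OTX015 and 2.85 ± 0.14 (4.06e-28) with both. The gene overlaps NDUFAF6, and since the strand setting of the counting is not known their shared reads cannot be told apart.

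TRIAP1, a small mitochondrial protein that blocks apoptosome formation, went the other way. It had 47.4 and 47.4 CPM with VTP50469, 38.4 and 34.0 CPM with OTX015 and 20.5 and 21.6 CPM with both, against 55.9 and 52.5 CPM in controls. The treated libraries all lay below the controls. TRIAP1 fell by 0.58 ± 0.07 on the log2 scale with OTX015 (adjusted p = 9.94e-12) and by 1.36 ± 0.07 with both agents (3.94e-26), while the change with VTP50469, -0.19 ± 0.06, was smaller than the fold limit.

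MDM2, the ligase that degrades p53, had 64.9 and 68.0 CPM with VTP50469, 75.9 and 77.6 CPM with OTX015 and 53.8 and 59.5 CPM with both, against 59.6 and 64.0 CPM in controls. Its level was thus highest with OTX015 alone and lowest with the combination. In the main fit it differed from control by less than 1.25-fold in every treatment, with the OTX015 change just under that limit. The log2 changes were 0.10 ± 0.06 (adjusted p = 0.165), 0.31 ± 0.06 (2.91e-06) and -0.13 ± 0.06 (0.0487). MDM4, its partner, had changes of 0.26 ± 0.07, -0.19 ± 0.07 and -0.15 ± 0.07, all within the limit.

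PPM1D, the phosphatase WIP1 that switches p53 signaling off, rose to 44.4 and 38.5 CPM with OTX015 and to 43.7 and 44.1 CPM with both, against 31.5 and 32.1 CPM in controls. Its log2 changes were 0.38 ± 0.07 (adjusted p = 3.28e-06) and 0.46 ± 0.07 (2.44e-08), and without OTX015 replicate 1 the first was 0.27 and no longer reached the limit. CCNG1, cyclin G1, which recruits a phosphatase to MDM2, changed by 0.35 ± 0.06 and 0.36 ± 0.06, values that fell under the limit when a single library was left out (0.31 without control replicate 1 and 0.21 without OTX015 replicate 1; with both agents 0.32 without control replicate 1 and 0.23 without combination replicate 2). ZMAT3, an RNA-binding zinc finger protein, rose with VTP50469 by 0.32 ± 0.10 (adjusted p = 0.00828), with 17.9 and 15.6 CPM in treated cells against 13.3 and 13.4 CPM in controls, and its change with both agents, 0.31 ± 0.10 (0.00527), lay under the limit. The call with VTP50469 was lost without control replicate 1 (0.31, adjusted p = 0.061), without control replicate 2 (0.32, 0.0512) and without VTP50469 replicate 1 (0.22, 0.214), and also with DESeq2 (0.30, 0.0766) and, under the limit, with limma-voom (0.31, 0.0162) and with no filter on low counts (0.29, 0.0362).

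In the growth arrest group, BTG2 rose with every treatment. BTG2, an antiproliferative factor that recruits deadenylases to messenger RNA, had 11.3 and 10.3 CPM with VTP50469, 17.4 and 17.5 CPM with OTX015, and 44.2 and 39.8 CPM with both, against 7.27 and 7.95 CPM in controls. The 4 groups did not overlap at any point, and the combination stood furthest from control. The log2 change was 0.50 ± 0.12 with VTP50469 (adjusted p = 0.000428), 1.20 ± 0.11 with OTX015 (2.35e-15) and 2.46 ± 0.10 with both (6.02e-33). BTG2 lies at chr1:203305519-203309602 (GRCh38.p14), and no p53 half-site pair was found in its window.

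The polo-like kinases of the list diverged. PLK3, a stress-responsive kinase, rose only with OTX015, to 17.7 and 17.7 CPM against 11.8 and 11.9 CPM in controls (log2 0.58 ± 0.10, adjusted p = 1.05e-06). PLK2, a kinase of centriole duplication, had 7.99 and 9.21 CPM with both agents against 10.1 and 11.9 CPM in controls and fell by 0.35 ± 0.12 (adjusted p = 0.00722). That call was lost without control replicate 2 (-0.23) and without combination replicate 1 (-0.25), and it was smaller than the limit without scaling factors (-0.26) or with upper-quartile factors (-0.30). GADD45A, which binds PCNA and p21 and slows cycling after damage, held 6.98 to 9.49 CPM over all 8 MOLM13 libraries with no change that passed.

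Of the repair genes, XPC and RRM2B rose and DDB2 and POLH did not pass. XPC, the DNA lesion sensor of nucleotide excision repair, had 37.3 and 36.4 CPM with OTX015 and 44.2 and 42.6 CPM with both, against 24.4 and 24.2 CPM in controls (log2 0.60 ± 0.07, adjusted p = 8.69e-11, and 0.84 ± 0.07, 1.58e-16). RRM2B, the p53-inducible subunit of ribonucleotide reductase, had 95.6 and 80.7 CPM with OTX015 and 105 and 108 CPM with both, against 62.9 and 60 CPM in controls (0.52 ± 0.06, 4.52e-12, and 0.80 ± 0.06, 5.09e-20). Both genes were above the control range in every library that received OTX015. XPC also had 30.1 and 27.7 CPM with VTP50469 alone, a log2 change of 0.25 ± 0.07 that stayed under the limit.

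DDB2, the damage-binding protein whose start region carries the exact half-site pair printed above, was nearly flat. It had 64.0 and 60.7 CPM with VTP50469, 58.1 and 59.0 CPM with OTX015 and 59.4 and 57.9 CPM with both, against 63.5 and 62.2 CPM in controls. All 8 libraries lay within a narrow band, and the log2 changes were -0.01 ± 0.06, -0.10 ± 0.06 and -0.10 ± 0.06 (adjusted p = 0.901, 0.111 and 0.108). POLH, the translesion polymerase eta, had changes between 0.03 and 0.09 with an SE of 0.06.

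In the metabolic group, SESN1 rose and FDXR fell with OTX015, and TIGAR moved in opposite directions with the 2 agents. SESN1, a sestrin that restrains mTORC1, had 42.4 and 39.7 CPM with OTX015 and 43.0 and 44.6 CPM with both, against 26.5 and 29.9 CPM in controls (log2 0.54 ± 0.07, adjusted p = 1.29e-09, and 0.63 ± 0.07, 4.65e-12). FDXR, the ferredoxin reductase of mitochondrial steroid and iron-sulfur chemistry, had 26.1 and 28.8 CPM with OTX015 and 28.9 and 26.5 CPM with both, against 38.4 and 34.9 CPM in controls. It fell by 0.42 ± 0.07 (1.63e-06) and 0.41 ± 0.07 (2.05e-06), the second of which was 0.31 and under the limit without scaling factors.

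TIGAR, a fructose bisphosphatase that diverts glucose toward NADPH production, had 12.2 and 12 CPM with VTP50469 and 25.8 and 21.4 CPM with OTX015, against 16.1 and 15.7 CPM in controls. It fell by 0.40 ± 0.10 with VTP50469 (adjusted p = 0.0015) and rose by 0.57 ± 0.09 with OTX015 (2.67e-07), with no overlap in either case. With both agents it had 17.7 and 18.6 CPM, a change of 0.19 ± 0.10 that did not pass (0.0673). TP53I3, a quinone oxidoreductase, was near the floor in MOLM13, with 4 to 11 counts per library, and was not tested.

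The 2 death receptors measured in MOLM13 moved apart. TNFRSF10B, the TRAIL receptor DR5, had 183 and 184 CPM with OTX015 and 213 and 200.4 CPM with both, against 128 and 136 CPM in controls, and rose by 0.47 ± 0.04 (adjusted p = 1.87e-14) and 0.64 ± 0.04 (1.77e-20). FAS, the receptor of FAS ligand, had 4.25 and 3.69 CPM with OTX015 and 4.90 and 6.17 CPM with both, against 6.83 and 8.08 CPM in controls. FAS fell by 0.91 ± 0.16 with OTX015 (1.04e-06) and by 0.43 ± 0.15 with both (0.00901), and the call with both was lost without control replicate 2 (-0.30), without combination replicate 1 (-0.27) and with DESeq2 (adjusted p = 0.0594). With VTP50469 alone neither receptor passed. TNFRSF10B overlaps RHOBTB2 and an antisense transcript, and FAS overlaps ACTA2 and an antisense transcript, so shared reads cannot be told apart. The same holds for other members, among them CCNG1 (with NUDCD2), PLK3 (DYNLT4), POLH (GTPBP2), SESN1 (ARMC2) and TP53I3 (FAM228B).

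The apoptosis group held the strongest rise and several of the strongest falls. PPP1R13B, which encodes ASPP1, a cofactor that turns p53 toward apoptotic promoters, had 10 and 9.68 CPM with OTX015 and 17.8 and 13.9 CPM with both, against 0.674 and 1.08 CPM in controls. With VTP50469 it had 0.924 and 1.40 CPM and overlapped the controls. The log2 change was 3.47 ± 0.21 with OTX015 (adjusted p = 1.36e-22) and 4.15 ± 0.20 with both (1.23e-28). PPP1R13B lies at chr14:103733195-103848814 and overlaps ZFYVE21 and a divergent transcript, whose reads could not be separated from it.

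AEN, a nuclease that acts in apoptosis and in p53 control after ribosome stress, had 54.8 and 52.4 CPM with OTX015 and 31 and 28.5 CPM with both, against 91.2 and 87.2 CPM in controls. It fell by 0.74 ± 0.06 (adjusted p = 3.01e-18) and by 1.58 ± 0.06 (4.27e-33). EI24, an endoplasmic reticulum protein of autophagy, had 138 and 137 CPM with OTX015 and 90.4 and 91.2 CPM with both, against 211 and 204 CPM in controls, and fell by 0.60 ± 0.04 (4.57e-19) and 1.19 ± 0.04 (1.92e-33). AEN and EI24 thus shared with TRIAP1 the order of lowest level with both agents, then OTX015, then VTP50469, then control. With VTP50469 alone, EI24 had 174 and 171 CPM, a log2 change of -0.27 ± 0.04 (8.07e-07) under the limit, and AEN had 85.0 and 81.8 CPM, a change of -0.10 ± 0.05. PHLDA3, an inhibitor of AKT, had 25.2 and 28.4 CPM with VTP50469, 23.4 and 22.2 CPM with OTX015 and 30.9 and 30.4 CPM with both, against 27.6 and 27.7 CPM in controls, and passed in none of the 3.

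TRIM22, an antiviral ubiquitin ligase that interferons also induce, showed the largest fall. It had 60.4 and 59.0 CPM with VTP50469, 5.88 and 4.49 CPM with OTX015 and 7.43 and 7.62 CPM with both, against 44.7 and 45.4 CPM in controls. It rose by 0.41 ± 0.07 with VTP50469 (adjusted p = 9.01e-07), while it fell by 3.12 ± 0.10 with OTX015 (1.21e-37) and by 2.58 ± 0.09 with both (2.63e-35). RPS27L, a ribosomal protein paralog that binds MDM2 and has near copies in the genome that can share its reads, had 54.0 and 54.8 CPM with both agents against 69.3 and 68.8 CPM in controls. It fell by 0.34 ± 0.06 (2.11e-07), a value under the limit without scaling factors (-0.25), with upper-quartile factors (-0.29) and with limma-voom (-0.29).

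**Figure D2:**
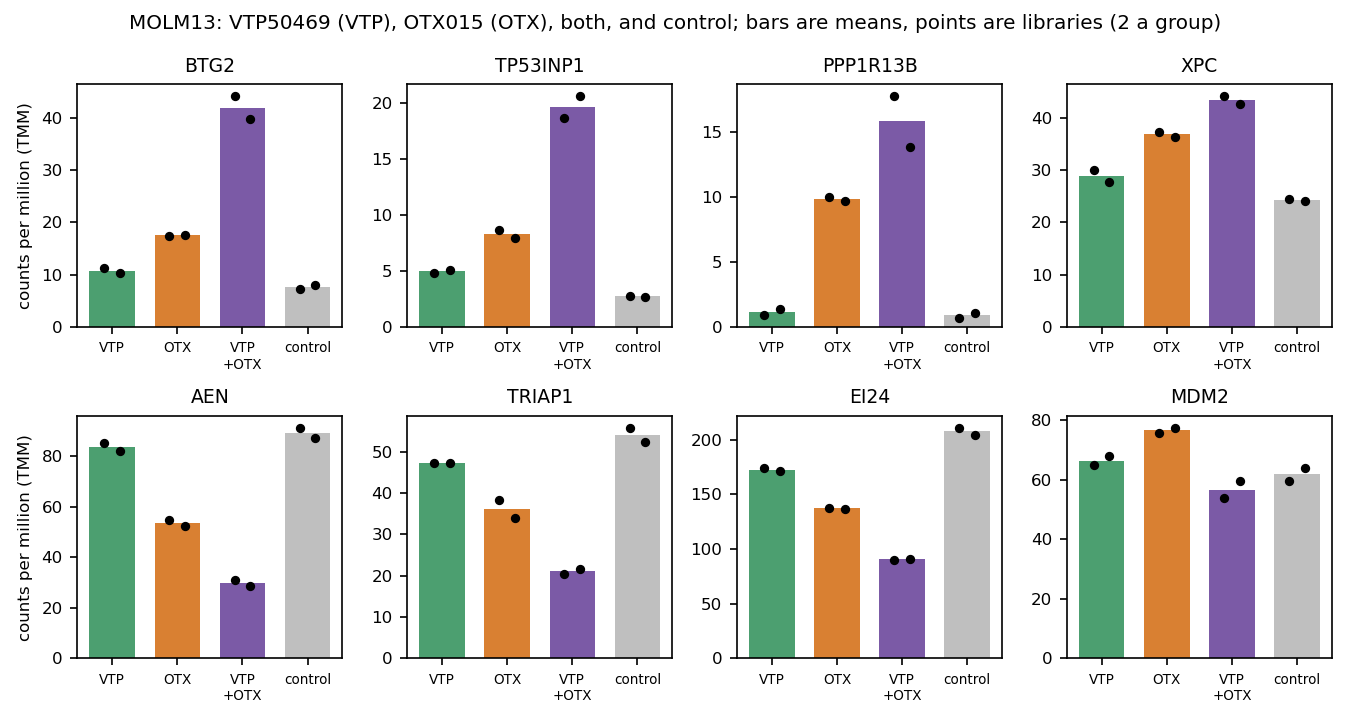
CPM of 8 p53 targets in MOLM13 cells (vertical axes, each from 0) for VTP50469, OTX015, both agents and control, with bars for means and points for the 2 libraries of each group. BTG2, TP53INP1, PPP1R13B and XPC are highest with both agents, AEN, TRIAP1 and EI24 are lowest with both agents, and MDM2 is highest with OTX015 alone.

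Setting the combination against each agent alone asks what the second agent added. Against OTX015 alone, 6 of 26 members rose and 7 fell (18.4% and 16.5% of all genes), and against VTP50469 alone 10 rose and 8 fell (27.9% and 29.0%). The members' median was 0.02 and -0.01, beside 0.01 and -0.02 over all genes. Without scaling factors, as with upper-quartile factors, the first split was 7 to 5, and the split of the combination against control was 10 to 5 without scaling factors. The genes raised further over OTX015 were BTG2 (1.26 ± 0.08, adjusted p = 8.17e-21), TP53INP1 (1.25 ± 0.11), PPP1R13B (0.68 ± 0.12), TRIM22 (0.54 ± 0.13), FAS (0.48 ± 0.17) and PHLDA3 (0.43 ± 0.08). The genes lowered further were AEN (-0.85 ± 0.07), TRIAP1 (-0.78 ± 0.08), EI24 (-0.60 ± 0.05), MDM2 (-0.44 ± 0.06), PLK3 (-0.41 ± 0.10), TIGAR (-0.37 ± 0.09) and PLK2 (-0.36 ± 0.12). In this comparison the FAS call was lost without OTX015 replicate 2 (0.38) and without combination replicate 2 (0.30), that of TRIM22 without OTX015 replicate 2 (0.35, adjusted p = 0.0615), that of TIGAR without OTX015 replicate 1 (-0.24) and that of PLK2 without OTX015 replicate 1 (-0.34, 0.0523) or combination replicate 1 (-0.26).

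Against VTP50469 alone, the combination raised PPP1R13B (3.76 ± 0.18), TP53INP1 (1.99 ± 0.12), BTG2 (1.96 ± 0.09), SESN1 (0.73 ± 0.07), RRM2B (0.67 ± 0.06), XPC (0.59 ± 0.07), TIGAR (0.59 ± 0.10), PPM1D (0.56 ± 0.07), TNFRSF10B (0.56 ± 0.04) and PLK3 (0.36 ± 0.11). It lowered TRIM22 (-2.99 ± 0.09), AEN (-1.49 ± 0.06), TRIAP1 (-1.17 ± 0.07), EI24 (-0.93 ± 0.05), PLK2 (-0.52 ± 0.12), FDXR (-0.50 ± 0.07), FAS (-0.42 ± 0.15) and MDM4 (-0.41 ± 0.07). The PLK3 value was 0.30 without VTP50469 replicate 2 and 0.32 without combination replicate 1, both under the limit, and the FAS value was -0.33 without VTP50469 replicate 1 and -0.26 without combination replicate 1, neither of which passed.

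Whether the effect of VTP50469 differed between cells with and without OTX015 was tested as an interaction. Of the 26 members, 2 had a positive and 5 a negative interaction that passed, beside 11.5% and 12.7% of all genes, and with DESeq2 the split was 2 to 3. BTG2 had the largest positive value, 0.76 ± 0.14 (adjusted p = 1.67e-05), the combination's 2.46 standing against a sum of the single changes of 1.70. PHLDA3 followed with 0.47 ± 0.11 (0.000376). The negative values belonged to AEN (-0.75 ± 0.08, 3.25e-11), TRIAP1 (-0.59 ± 0.10, 1.87e-06), MDM2 (-0.54 ± 0.08, 1.48e-07), PLK2 (-0.53 ± 0.17, 0.00898) and EI24 (-0.33 ± 0.06, 2.07e-05). AEN changed by -1.58 with both agents where the single changes summed to -0.83, and MDM2 by -0.13 where they summed to 0.41. The PLK2 value did not pass without control replicate 1 (-0.41, adjusted p = 0.0832) or combination replicate 1 (-0.42, 0.0706), and that of EI24 was under the limit without control replicate 2 (-0.31), VTP50469 replicate 1 (-0.32) or combination replicate 1 (-0.32). TP53INP1, PPP1R13B and TRIM22, which changed by more in size than BTG2 in the combination, had interactions of 0.38 ± 0.21 (0.163), 0.28 ± 0.36 (0.595) and 0.14 ± 0.15 (0.534).

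**Figure D3:**
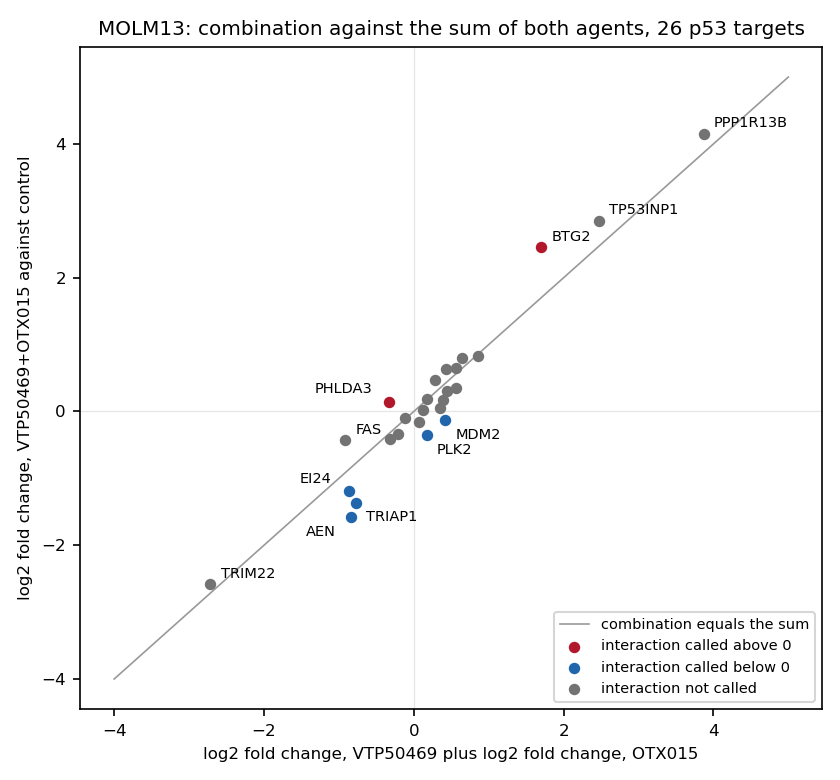
Log2 fold change of the combination against control (vertical) plotted against the sum of the log2 fold changes of VTP50469 and OTX015 alone (horizontal) for the 26 p53 targets tested in MOLM13, with a line where both are equal. BTG2 and PHLDA3 lie above the line with a called interaction, and AEN, TRIAP1, MDM2, PLK2 and EI24 below it.

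In MV4-11 cells, where the dose was 1000 nM, 4 of 29 members rose with VTP50469 and 1 fell, against 11.4% and 9.34% of 15486 genes tested. The members' median was -0.18 beside 0.00 over all genes, and 19 of the 29 had a negative value. PERP and GDF15 had too few counts. Without control replicate 1, the library with the high mitochondrial share, 3 members passed, which were TP53I3, TP53INP1 and BTG2.

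TP53I3, which overlaps FAM228B and may share its reads, had the largest change. It had 9.18 and 8.03 CPM in treated MV4-11 cells against 3.54 and 3.72 CPM in controls. It rose by 1.24 ± 0.22 (adjusted p = 0.000798), and by 1.20 (0.000726) without control replicate 1. BTG2 had 66.2 and 66.4 CPM in treated cells against 40.8 and 39.7 CPM in controls, a rise of 0.72 ± 0.15 (0.00294), or 0.73 (0.0272) without that library. TP53INP1 had 15.1 and 21.8 CPM in treated cells against 10.4 and 11.0 CPM in controls, a rise of 0.79 ± 0.20 (0.0102), or 0.74 (0.0383) without control replicate 1, and its call was lost without VTP50469 replicate 2 (0.50, 0.105). In all 3 genes the treated libraries lay above the controls.

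PHLDA3 rose by 0.79 ± 0.20 in MV4-11 (adjusted p = 0.01), with 55.2 and 48.2 CPM in treated cells against 22.4 and 37.1 CPM in controls. The controls differed from each other, control replicate 1 being the lower, and the change was 0.47 (0.209) without that replicate, 1.20 (5.49e-05) without control replicate 2 and 0.66 (0.0892) without VTP50469 replicate 1. TIGAR fell by 0.54 ± 0.17 (0.0341), with 14.6 and 16.3 CPM in treated cells against 21.4 and 23.5 CPM in controls. That call was lost without control replicate 1 (-0.62, 0.0757), control replicate 2 (-0.47, 0.177) or VTP50469 replicate 1 (-0.49, 0.131), and without scaling factors (-0.51, 0.0765). MDM2 had 61.1 and 80.8 CPM in treated cells against 94.5 and 97.9 CPM in controls, a change of -0.44 ± 0.16 that did not pass (0.0654; -0.47 and 0.168 without control replicate 1). It did pass without VTP50469 replicate 2 (-0.65, 0.00408) and with all 18 libraries in 1 fit (-0.46, 0.000313). The spread between MV4-11 replicates was wide, with a biological coefficient of variation of 13.2% against 3.06% in MOLM13 and 3.15% in OCI-AML3. The balance of rises and falls was not stable. Without scaling factors 4 rose and 0 fell, with limma-voom 4 rose and 2 fell, without VTP50469 replicate 2 it was 3 and 4, and with all 18 libraries in 1 fit 5 rose and 9 fell.

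In OCI-AML3 cells, 4 of 30 members rose with 500 nM VTP50469 and 1 fell, against 8.58% and 4.53% of 16611 genes tested. The median was 0.09 beside 0.00 over all genes, and the changes were small, between -0.39 and 0.73. PPP1R13B had 3.63, 4.24 and 3.49 CPM in treated cells against 2.33, 2.59 and 1.96 CPM in controls, the largest rise, 0.73 ± 0.12 (adjusted p = 0.000277). TP53I3 had 5.46, 5.2 and 5.48 CPM in treated cells against 4.58, 3.86 and 3.96 CPM in controls, a rise of 0.38 ± 0.08 (0.00234) that was 0.28 with limma-voom. The treated libraries were above the controls in both.

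BTG2 had 57.9, 58.2 and 58.3 CPM in treated OCI-AML3 cells against 45.1, 48.4 and 45.9 CPM in controls, a rise of 0.32 ± 0.03 (adjusted p = 6.29e-06). The treated libraries agreed closely and all exceeded the controls, but the change lay at the fold limit and was under it without control replicate 1 (0.31) or control replicate 3 (0.31). GDF15, a stress cytokine, had 2.65, 2.78 and 2.40 CPM in treated cells against 2.17, 1.95 and 2.00 CPM in controls, a rise of 0.36 ± 0.11 (0.0168) that did not pass without control replicate 2 (0.33, 0.0522), without VTP50469 replicate 2 (0.31, 0.0708) or with DESeq2 (0.0704). PERP, a membrane protein of desmosomes and of apoptosis, had 12.2, 11.8 and 11.1 CPM in treated cells against 15.1, 16.0 and 14.7 CPM in controls and fell by 0.39 ± 0.05 (8.25e-05). With limma-voom the split was 2 to 1. A further 10 members had an adjusted p below 0.05 with a change under 1.25-fold, among them ZMAT3 (0.30 ± 0.04, 9.4e-05), TP53INP1 (0.23 ± 0.05, 0.00153), TNFRSF10B (0.22 ± 0.03, 1.5e-05), FDXR (0.20 ± 0.04, 0.000518), TRIM22 (0.20 ± 0.03, 0.000122) and EI24 (-0.17 ± 0.03, 0.000356). Such small changes were common in the whole table. With no fold limit 15 of the 30 members passed (11 higher, 4 lower), beside 6338 of 16611 genes (3134 higher, 3204 lower). The difference was not tested.

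Over the 3 lines, BTG2 alone of the 26 members tested in each rose with VTP50469 in all 3, with log2 changes of 0.50, 0.72 and 0.32 in MOLM13, MV4-11 and OCI-AML3. TP53INP1 rose in MOLM13 and MV4-11, TP53I3 in MV4-11 and OCI-AML3, and TIGAR fell in MOLM13 and MV4-11, while 19 of the 26 passed in no line. Such counts over the 3 lines were not made for all genes, so they are not a result about the members. The doses differed between MV4-11 and the other lines, so the log2 changes stand side by side and were not compared. At the shared dose of 500 nM, the response of OCI-AML3 minus that of MOLM13 was tested in a single fit, in which 1 member was higher and 0 were lower, against 2.60% and 1.49% of 17597 genes. With upper-quartile factors 1 was higher and 1 lower. The members' median difference was 0.00 (0.01 over all genes). At an unadjusted p below 0.05 edgeR gave 2 members higher and 2 lower, and DESeq2 and limma-voom each called 1 higher and 0 lower.

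That member was TIGAR, whose response was 0.54 ± 0.13 higher in OCI-AML3 than in MOLM13 (adjusted p = 0.0149). In OCI-AML3 it had 12, 11.5 and 10.9 CPM with VTP50469 against 11.0, 10.1 and 10.7 CPM in controls, overlapping groups with a change of 0.11 ± 0.06, while in MOLM13 the treated libraries lay below the controls. Leaving out any single MOLM13 control or VTP50469 library ended the call, with values of 0.53 without control replicate 1 (adjusted p = 0.0707), 0.55 without control replicate 2 (0.061), 0.56 without VTP50469 replicate 1 (0.0586) and 0.52 without VTP50469 replicate 2 (0.0859). The difference for BTG2 was -0.15 ± 0.11 (0.564) and for TP53INP1 -0.61 ± 0.21 (0.116).

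**Figure D4:**
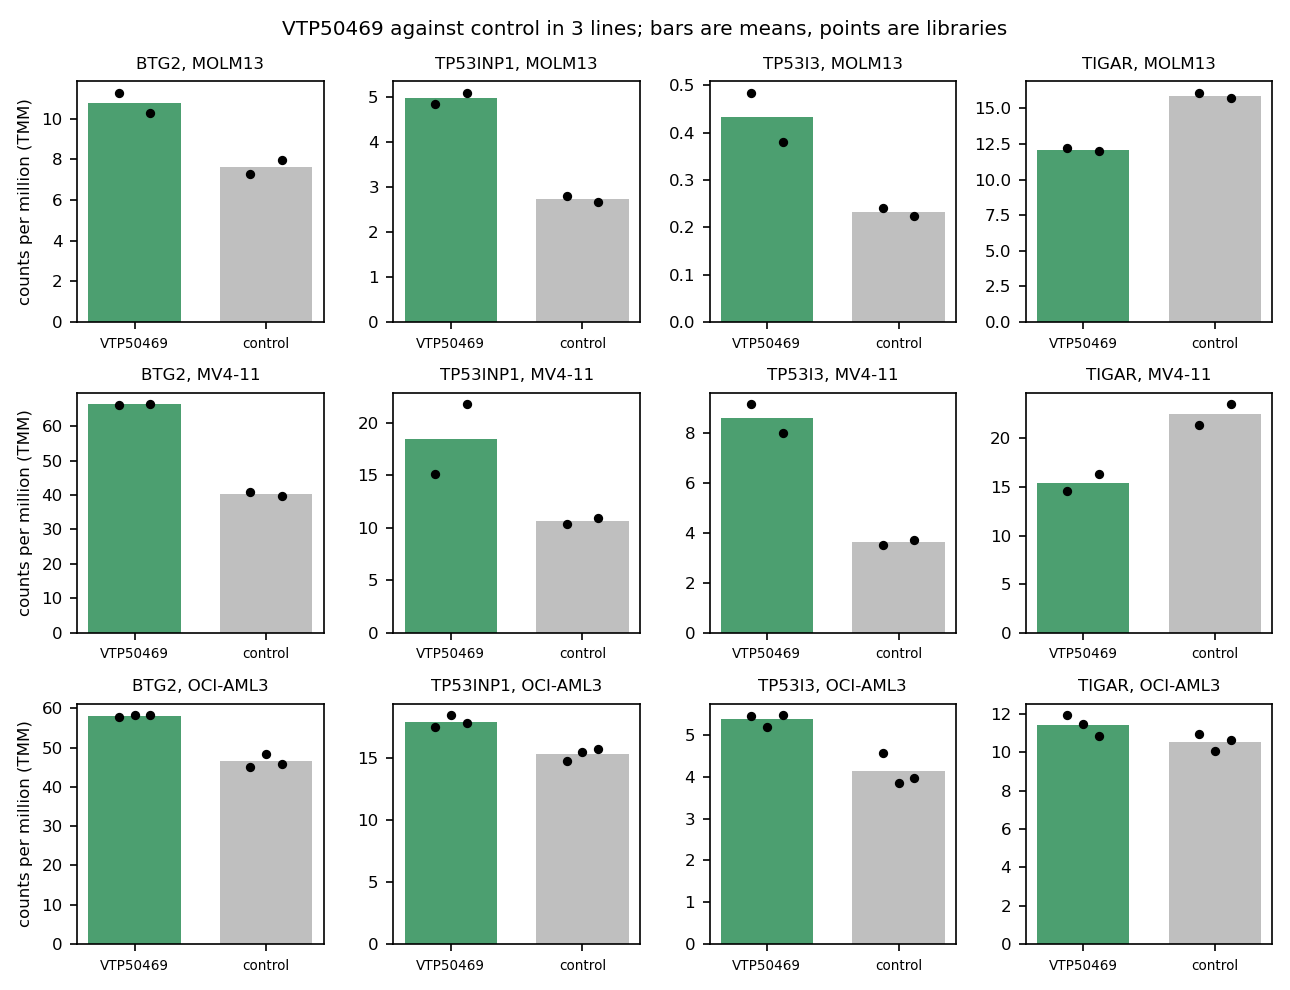
CPM of BTG2, TP53INP1, TP53I3 and TIGAR (columns) in VTP50469-treated and control cells of MOLM13, MV4-11 and OCI-AML3 (rows), with bars for means, points for libraries and each axis starting at 0. BTG2 is higher in every treated library of each line, TIGAR is lower in the treated libraries of MOLM13 and MV4-11, and TP53I3 stays below 0.5 CPM in MOLM13.

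Control cells of the 3 lines differed in many p53 targets, as they did in many genes of the whole table. Control MOLM13 cells had 6 members higher and 16 lower than control OCI-AML3 cells (30.5% and 33.7% of all genes), control MV4-11 cells 8 higher and 10 lower than OCI-AML3 (34.3% and 33.1%), and MOLM13 7 higher and 14 lower than MV4-11 (29.3% and 34.2%). The medians were -0.36, -0.13 and -0.15, beside -0.05, 0.00 and -0.06 over all genes. Without scaling factors the medians over all genes were -0.24 for MOLM13 against OCI-AML3 and -0.21 for MOLM13 against MV4-11. MOLM13 was the lowest of the 3 lines by mean level for 15 of the 31 members, and OCI-AML3 the highest for 13. The same order was not counted over all genes, so these 2 counts are not a result about the members. Without MV4-11 control replicate 1 the counts were 9 higher and 10 lower against OCI-AML3, and 7 and 13 for MOLM13 against MV4-11, and without MV4-11 control replicate 2 the lower count against OCI-AML3 was 16. For MV4-11, line and medium cannot be told apart. Sequencing depth also went with the line. The OCI-AML3 controls held 49881047 to 59711884 counts, against 21447286 and 23065883 in MOLM13 controls and 20730486 and 30090830 in MV4-11 controls. The part of depth in these differences was not tested.

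Several members were close to silent in some lines. PERP had 14.2, 15.1 and 13.9 CPM in OCI-AML3 controls, 2 counts in each MV4-11 control and 0 counts in both MOLM13 controls, so its mean in OCI-AML3 was at least 103-fold higher than the MOLM13 floor of 3 counts per library. EDA2R, the receptor of ectodysplasin A2, had 12.5 and 11.4 CPM in MV4-11 controls, 7 to 11 counts per library in OCI-AML3 controls and 0 counts in MOLM13 controls, at least 85.3-fold higher in MV4-11 than the MOLM13 floor. SPATA18, which takes part in the repair and removal of damaged mitochondria, had 2.77 and 4.36 CPM in MV4-11 controls, 7 to 14 counts per library in OCI-AML3 controls and 0 counts in all 8 MOLM13 libraries, at least 25.5-fold higher in MV4-11. Each of these 3 was thus expressed well above the floor in 1 line only. One of the 14 lower calls of MOLM13 against MV4-11 is PERP, where both groups were at or under the floor and no fold is given, and that call was lost when any single control of the 2 lines was left out (adjusted p = 0.0551 to 0.155).

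GDF15 was also confined to low levels outside OCI-AML3, with 5 and 3 counts in MOLM13 controls and 5 and 6 in MV4-11 controls against 2.04, 1.84 and 1.88 CPM in OCI-AML3 controls. TP53I3 had 5 counts (0.256 and 0.240 CPM) in each MOLM13 control, 3.53 and 3.63 CPM in MV4-11 controls and 4.32, 3.64 and 3.73 CPM in OCI-AML3 controls. The MOLM13 level was lower than that of OCI-AML3 by a log2 value of 3.96 ± 0.25 (-3.96, adjusted p = 1.62e-11) and lower than that of MV4-11 (-3.84 ± 0.28), whereas MV4-11 and OCI-AML3 did not differ beyond their spread (-0.12 ± 0.13, 0.421).

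BTG2 and TP53INP1, the genes that rose with each treatment in MOLM13, started from low levels there. Control BTG2 was 7.72 and 8.51 CPM in MOLM13, 40.7 and 38.8 CPM in MV4-11 and 42.5, 45.8 and 43.2 CPM in OCI-AML3, scaled over all 18 libraries. MOLM13 was lower than OCI-AML3 by -2.43 ± 0.08 (adjusted p = 3.89e-16) and than MV4-11 by -2.29 ± 0.09 (6.99e-15). Control TP53INP1 was 2.96 and 2.83 CPM in MOLM13, 10.4 and 10.7 CPM in MV4-11 and 13.9, 14.6 and 14.8 CPM in OCI-AML3, with differences of -2.32 ± 0.15 and -1.86 ± 0.17. PPP1R13B was lower in MOLM13 as well, by -1.19 ± 0.27 against OCI-AML3 and -1.51 ± 0.29 against MV4-11. On the same scale the MOLM13 libraries with both agents averaged 44.8 CPM of BTG2 and 21 CPM of TP53INP1, beside 43.8 and 14.4 CPM in OCI-AML3 controls.

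Of the genes that act on p53, 6 of 7 were lower in control MOLM13 than in control OCI-AML3, beside 33.7% of all genes. The difference from this share was not tested. MDM2 had 63.3 and 68.5 CPM in MOLM13, 94.2 and 95.5 CPM in MV4-11 and 126, 133 and 134 CPM in OCI-AML3, and the 3 lines were apart in every pair (-0.99 ± 0.08, -0.46 ± 0.08 and -0.53 ± 0.09 for MOLM13 against OCI-AML3, MV4-11 against OCI-AML3 and MOLM13 against MV4-11). MDM4 kept the same order, with -1.20 ± 0.08, -0.54 ± 0.07 and -0.66 ± 0.09. CCNG1 was highest in MV4-11, where it was 0.53 ± 0.09 above OCI-AML3. TRIAP1 was the exception in MOLM13, with 59.3 and 56.2 CPM against 44.4, 45.5 and 44.1 CPM in OCI-AML3 (0.37 ± 0.09, adjusted p = 0.000646, but 0.17 and 0.0978 without scaling factors).

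Other members were higher in MOLM13 or MV4-11. AEN had 96.9 and 93.3 CPM in MOLM13 controls, 44.1 and 55.4 CPM in MV4-11 controls and 62.9, 61.4 and 62.9 CPM in OCI-AML3 controls (0.61 ± 0.07 above OCI-AML3 and 0.93 ± 0.08 above MV4-11). PLK3 and POLH were higher in MOLM13 than in OCI-AML3 (1.21 ± 0.11 and 0.83 ± 0.07) and than in MV4-11 (1.33 ± 0.13 and 0.86 ± 0.08). TRIM22 had 141 and 129.9 CPM in MV4-11 controls against 45.7, 45.3 and 45.3 CPM in OCI-AML3 controls (1.57 ± 0.07), and GADD45A (1.39 ± 0.10), TIGAR (1.16 ± 0.08), PLK2 (1.14 ± 0.10) and XPC (1.01 ± 0.08) were higher in MV4-11 than in OCI-AML3 too. DDB2 differed by no more than 0.09 ± 0.06 between any of the lines, and none of its 3 differences passed. Besides PERP, the member calls between control cells that were lost with 1 library left out were those of RRM2B in MOLM13 against OCI-AML3 (-0.36, or -0.32 without OCI-AML3 control replicate 2), of TIGAR in MOLM13 against MV4-11 (-0.39, or -0.30 without MV4-11 control replicate 2) and of FAS in the same comparison (0.40, or 0.27 without MOLM13 control replicate 2 and 0.35 without MV4-11 control replicate 2).

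**Figure D5:**
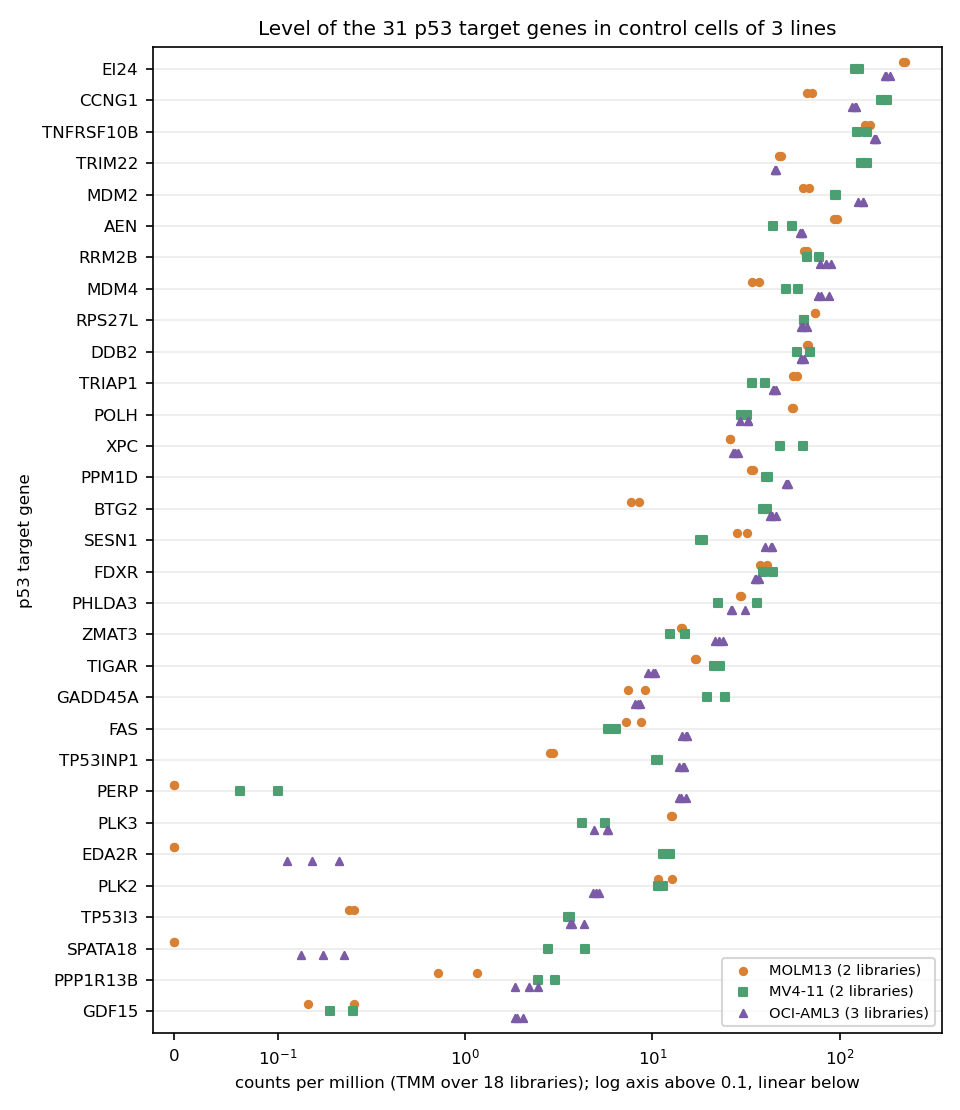
CPM of the 31 p53 targets (down the page, by their highest value) in control cells of MOLM13, MV4-11 and OCI-AML3, each point a library, on a log axis above 0.1 CPM. MOLM13 points of BTG2 and TP53INP1 lie left of the other lines, PERP and GDF15 stand out in OCI-AML3 and EDA2R and SPATA18 in MV4-11.

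Genes outside the list show how other p53 targets behaved in the same libraries. CDKN1A, which encodes the cyclin-dependent kinase inhibitor p21, had 114 and 123 CPM with VTP50469, 331 and 328 CPM with OTX015 and 287 and 264 CPM with both in MOLM13, against 142 and 143 CPM in controls. It rose with OTX015 (1.21 ± 0.04, adjusted p = 7.15e-34) and with both (0.95 ± 0.04), and its change with VTP50469 was -0.27 ± 0.05 in MOLM13, 0.46 ± 0.15 in MV4-11 (0.0423, but 0.35 and 0.347 without control replicate 1) and 0.41 ± 0.03 in OCI-AML3 (1.49e-07), with a difference of 0.71 ± 0.09 between OCI-AML3 and MOLM13 (3.12e-05). Of 25 other p53 targets, CDKN1A among them, VTP50469 raised 1 and lowered 1 in MOLM13, raised 6 and lowered 4 in MV4-11 (2 and 2 without control replicate 1) and raised 2 and lowered 0 in OCI-AML3 by edgeR (9 were lower at an unadjusted p below 0.05, DESeq2 called 0 lower and limma-voom 1), while in MOLM13 OTX015 raised 10 and lowered 2 and the combination raised 12 and lowered 6. As background, 23.5% of all MOLM13 genes tested passed as higher under OTX015 and 24.7% as lower. Under both agents these shares were 31.2% and 30.9%, and under VTP50469 alone 8.06% and 5.24%. VTP50469 moved 11.4% of MV4-11 genes up and 9.34% down, against 8.58% up and 4.53% down for OCI-AML3. Whether the other targets differed from these shares was not tested. All-gene shares at an unadjusted p below 0.05 are not given. BBC3, the BH3-only protein PUMA, rose with the combination (0.62 ± 0.06), whereas BAX fell (-0.44 ± 0.04).

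Of 19 genes that act on p53, 18 were tested in MOLM13, where VTP50469 raised 5 and lowered 1, OTX015 raised 7 and lowered 5 and the combination raised 6 and lowered 5, and in MV4-11 and in OCI-AML3 VTP50469 raised 1 and lowered 1 (1 and 0 in MV4-11 without control replicate 1). HIPK2, a kinase that phosphorylates p53, rose with VTP50469 in all 3 lines (0.72 in MOLM13, 1.5 in MV4-11, or 1.53 without control replicate 1, and 0.33 in OCI-AML3) and with OTX015 (1.34) and both (2.67) in MOLM13. The gene of this list that fell was CHEK1 in MV4-11 (-0.63, or -0.55 without control replicate 1) and CDKN2A in OCI-AML3 (-0.71). Changes shared by all 3 lines were not counted over all genes. For this list and the cell cycle genes below, the background shares are those given above for the other p53 targets. The difference of either list from those shares was not tested, and unadjusted counts have no all-gene share here. RPL5 and RPL11, ribosomal proteins that bind MDM2, fell with OTX015 (-0.48 and -0.38) and with both (-0.79 and -0.52). Among 15 cell cycle genes that p53 lowers through p21 and the DREAM complex, VTP50469 raised 1 and lowered 1 in MOLM13, lowered 2 in MV4-11 (0 without control replicate 1, where 3 were lower at an unadjusted p below 0.05) and changed 0 in OCI-AML3 by edgeR, DESeq2 or limma-voom (at an unadjusted p below 0.05, 3 were higher and 2 lower by edgeR and by DESeq2, and 9 higher and 0 lower by limma-voom), while in MOLM13 OTX015 raised 1 and lowered 2 and the combination raised 2 and lowered 5.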

How the data were processed

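RNA from 18 libraries of 3 AML cell lines was sequenced by the study, and the authors deposited whole-number counts for 58037 Ensembl gene IDs, not normalized. The submitters' notes name STAR and hg38, the study's methods TopHat2 and Cufflinks2, and neither the counting program nor its strand setting or annotation is given in the sources used here. Symbols matched 55603 IDs, and the rest held 0.1563% of the counts. The table held 0 spike-in entries and 0 columns that could not be mapped to a sample. Members and gene lists were chosen with earlier results of these data known, so no test over the list was run, and all 31 members may be named.

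The test was edgeR's quasi-likelihood F-test (version 4.0.16, R 4.3.3) in a model of group means, after filterByExpr and TMM scaling. MOLM13, MV4-11 and OCI-AML3 were fitted apart (14360, 15486 and 16611 genes) and comparisons between lines came from 1 fit of 18 libraries (17597 genes). p-values were adjusted over all genes tested by Benjamini-Hochberg. The standard error is the log2 change divided by the square root of F. CPM values within a line are scaled within it. The separate fit of each line was tested on simulated data, for its first comparison alone. The fit of 18 libraries and the interaction were not tested in this way. Alternatives were DESeq2 1.42.0, limma-voom 3.58.1 with quantile normalization, no or upper-quartile scaling factors, no filter, no fold limit, all libraries in 1 fit, a replicate block and leaving out each library. Replicates of a group differed by more than counting noise (chi-square per degree of freedom 1.46 to 43.9), and none were merged. Promoter windows and gene positions are RefSeq's (GRCh38.p14). Some genes are not reported here.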

Additional observations from a re-analysis of the deposited data

Results flagged for a closer look

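In 7 members the effect of VTP50469 differed between MOLM13 cells with and without OTX015 by the interaction test. The log2 differences were 0.76 for BTG2, 0.47 for PHLDA3, -0.75 for AEN, -0.59 for TRIAP1, -0.54 for MDM2, -0.53 for PLK2 and -0.33 for EI24. With all 18 libraries in 1 edgeR fit, PHLDA3 (0.54, adjusted p = 0.0901) and PLK2 (-0.47, 0.0649) did not pass. EI24 was under the fold limit there (-0.27). With DESeq2, PLK2 did not pass (-0.50, 0.0829) and EI24 was under the limit (-0.30). The response of TIGAR to 500 nM VTP50469 differed between OCI-AML3 and MOLM13 cells by 0.54 in a test of the difference itself. That call ended when any single MOLM13 control or VTP50469 library was left out. The groups of 2 and 3 libraries were too small for a search for outlying samples, and MV4-11, which received another dose, was left out of the comparison of responses.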

How the results depend on the processing

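Of 149 member results that passed, 119 kept their direction and their side of both thresholds under every alternative run, 129 under the alternatives that kept all libraries and 125 when any single library was left out. Of 190 that did not pass, 57 passed under at least 1 alternative, and changes of sign between 2 values that did not pass were not counted as changes. The number of members called moved by more than 1.5 times in the following cases. For VTP50469 in MOLM13 it was 5, and 10 with no fold limit. For the interaction it was 7, and 4 with all libraries in 1 fit. For MV4-11 it was 5, and 14 with all libraries in 1 fit (5 higher, 9 lower), 8 with a replicate block (5 higher, 3 lower, with MDM2 passing at -0.45 and an edgeR adjusted p of 0.0228) and 3 to 7 with 1 library left out. For OCI-AML3 it was 5, and 3 with limma-voom, 3 with all libraries in 1 fit and 15 with no fold limit. For OCI-AML3 minus MOLM13 it was 1, and 2 with upper-quartile factors, 2 with a replicate block and 0 to 1 with 1 library left out. The cause was not tested, except that dropping the fold limit or the libraries acts by construction. PHLDA3 in control cells reversed with the MV4-11 control left out, from 0.365 without replicate 1 to -0.351 without replicate 2 for MV4-11 against OCI-AML3, and from -0.294 to 0.437 for MOLM13 against MV4-11. The correlation of same-numbered deviations was -0.25 to 0.09 in MOLM13, 0.12 in MV4-11 and 0.03 to 0.34 in OCI-AML3. For libraries with different numbers it was -0.09 to 0.25 in MOLM13, -0.12 in MV4-11 and -0.30 to 0.20 in OCI-AML3. With so few libraries these values do not settle whether replicate numbers pair the samples, and the block was run only as an alternative. With 2 or 3 libraries per group, members with few counts had wide errors.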
